A study of Mus musculus with 6 samples.

Results

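The interleukin 1 family of secreted cytokines is represented here by 5 genes of cultured mouse peritoneal macrophages: Il1a, Il1b, Il18, Il1f9 and Il1rn. They were taken by symbol from the table of read counts, with the counts of all transcript rows of a symbol summed, and are 5 of 24454 symbols. Of these 5 genes, 4 had enough reads to be tested, among 9389 genes tested in all. RNA came from wild-type male C57BL6/J mice aged 6 to 8 weeks, and polyA-enriched libraries were sequenced in 3 groups of 2. The SGA360+LPS group received 10 µM SGA360, which binds the aryl hydrocarbon receptor (AHR), for 1 h and then 10 ng/ml of the bacterial endotoxin LPS for 4 h. The LPS group received 10 ng/ml LPS for 4 h, and the vehicle group received vehicle for 5 h. No vehicle pretreatment is named for the LPS group, so SGA360 and a difference in solvent or handling cannot be told apart. No label ties a library to an animal or culture, so p-values measure the spread between libraries, which may be technical.

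Cytokines of this family alert cells to infection and damage. Il1a and Il1b encode the agonists interleukin 1 alpha and beta, which signal through the receptor Il1r1 and its partner Il1rap to the adaptor Myd88 and to NF-kB. Macrophages make both as precursors: caspase 1, activated in inflammasomes, cleaves the precursors of interleukin 1 beta and interleukin 18, and gasdermin D forms the pores through which the mature proteins leave the cell. Il18 encodes a cytokine that induces interferon gamma and whose precursor is made in many resting cells. Il1f9 encodes interleukin 36 gamma, and Il1rn the receptor antagonist that occupies Il1r1 without signalling.

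The genes lie in 3 places of the mouse genome (mm10, positions of the deposited transcripts). Il1a (NM_010554) spans chr2:129299610-129309972 and Il1b (NM_008361) chr2:129364578-129371139, both on the minus strand, with 54.6 kb between them. Il1f9 (NM_153511, chr2:24186476-24193567) and Il1rn (3 transcripts within chr2:24336860-24351491) lie on the plus strand elsewhere on the same chromosome. Il18 (NM_008360, chr9:50565368-50581837, plus strand) is on another chromosome. All are annotated as protein-coding in GENCODE M21, and the counts are of reads assigned to their transcripts.

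Il1a and Il1b are the members that moved in both treatment comparisons below, so the 250 bases before their start sites are shown (RefSeq, GRCm38.p6, the assembly of mm10). Each is written 5′ to 3′ on the gene's own minus strand, Il1a from chr2:129309973-129310222 and Il1b from chr2:129371140-129371389. Capitals mark matches to a TATA box (TATAAA) and to an AP-1 motif (TGANTCA).
Il1a: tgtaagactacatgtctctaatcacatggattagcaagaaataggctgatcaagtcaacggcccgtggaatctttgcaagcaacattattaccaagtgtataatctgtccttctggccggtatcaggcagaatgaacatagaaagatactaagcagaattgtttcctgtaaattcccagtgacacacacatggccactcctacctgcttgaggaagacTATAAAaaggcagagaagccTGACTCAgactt
Il1b: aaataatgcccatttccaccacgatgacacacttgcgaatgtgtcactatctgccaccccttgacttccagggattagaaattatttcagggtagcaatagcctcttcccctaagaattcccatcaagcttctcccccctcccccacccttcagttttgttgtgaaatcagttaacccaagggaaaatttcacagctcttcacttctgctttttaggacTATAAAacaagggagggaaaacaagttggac
Both windows hold TATAAA, starting 32 bases before the start site in Il1a and 31 bases before it in Il1b, a match that 12.4% of 32851 RefSeq promoter windows of this length hold on either strand. Il1a also holds TGACTCA, starting 12 bases before the start site, and 6.75% of all windows hold an AP-1 match. Neither window holds the AHR core (GCGTG, in 28.2% of all windows), the NF-kB consensus (3.90%), a CRE (TGACGTCA, 1.55%) or a C/EBP motif (TTGCNNAA, 9.56%), searched on both strands. These matches describe the letters of the windows and are not evidence of binding.

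The 3′ untranslated regions of the same 2 agonist genes hold AU-rich motifs, the kind of sequence through which many cytokine mRNAs are marked for rapid decay. The stretch of 30 bases with most ATTTA in each is given from GENCODE M21, with ATTTA in capitals.
Il1a: attttatctatgtATTTAtaaatatATTTA
Il1b: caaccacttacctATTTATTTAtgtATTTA
Il1b held 4 ATTTA motifs in 459 bases (8.71 per kb) and Il1a 3 in 1101 bases (2.72 per kb), against a median of 1.34 per kb over 8641 tested genes. The longer motif TATTTAT, which overlaps ATTTA, occurred 3 times in each, and 3.90% of those genes held it 3 times or more. Il18 held 1 ATTTA in 123 bases, while Il1f9 and the transcript of Il1rn with the longest region held none.

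Library totals ran from 7726973 to 9529817 counts. Vehicle replicate 1 stood apart, with reads for 10001 symbols where the other libraries had reads for 12282 to 12643, and with 4.92% of its counts on ribosomal Rn45s (0.220% to 0.684% in the others). Of 813 symbols with 10 to 20 counts in vehicle replicate 2, 27.1% had no count in vehicle replicate 1. In the other direction 6.76% of 814 symbols did. Of 8 macrophage markers, 7 were detected, among them Lyz2, Csf1r and Adgre1, and their summed level ran from 21736 to 25080 CPM with SGA360+LPS, 22545 to 26209 CPM with LPS and 21303 to 23298 CPM in vehicle. CPM are counts scaled to a common library size (TMM). All 6 fibroblast markers were also detected, at a sum of 4737 to 5208, 4418 to 4725 and 4680 to 5379 CPM in the same order. Neutrophil markers, another source of Il1b, summed to 13.6 to 16.02 CPM with SGA360+LPS, 15.96 to 19.1 CPM with LPS and 13.1 to 18.0 CPM in vehicle, with Ly6g and S100a9 at 0 in all 6 libraries. S100a9 has several transcript rows, which limits what its 0 shows. Of the tested markers, 2 of 7 of macrophages rose and 3 fell with LPS, and 3 of 7 of mesothelium fell, with sums of 332 to 351 CPM with SGA360+LPS, 337 to 340 CPM with LPS and 472 to 502 CPM in vehicle. Itgax of the dendritic cell list and Fcer1a of the mast cell list also rose, and Col3a1 of the fibroblast list fell. Of all tested genes 19.4% rose and 17% fell with LPS. The dendritic cell sum was 223 to 224 CPM with SGA360+LPS, 210 to 224 CPM with LPS and 142 to 145 CPM in vehicle. Most of it was Itgax, with means of 214, 208 and 138 CPM in that order. Flt3 had means of 2.98, 2.87 and 2.83 CPM, and Zbtb46, without a call, 6.06, 5.59 and 2.72 CPM. In SGA360+LPS against LPS edgeR called 0 of 35 tested markers, with an unadjusted p under 0.05 for 2, limma-voom called 0 and DESeq2 called 1 (Cd14). Of all 9389 tested genes edgeR called 0.0746% in that comparison, and 276 had an unadjusted p under 0.05. What the cell types of these markers contribute to the results below was not tested. In such bulk libraries fewer cells of a type and less RNA per cell cannot be told apart.

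The first comparison asks how the endotoxin alone changed these genes. Il1b was at 1297 and 1225 CPM in the LPS libraries, against 0 and 1.35 CPM in the vehicle libraries. Vehicle thus had almost no Il1b reads, 0 and 13 counts, while the LPS libraries held 9752 and 11209. The fitted log2 fold change was 10.79 (SE 0.28; adjusted p = 1.39e-09), which ranked 1 among the 7831 tested genes with a mean of at least 5 CPM in some group. The size of this fold rests on the 13 counts of vehicle replicate 2: it was 9.87 without vehicle replicate 1, and 16.39 without vehicle replicate 2, a value against a lone library at 0 that has no meaning as a size.

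Il1a, the other agonist, was already measurable without the stimulus. It stood at 719 and 794 CPM in the LPS libraries, against 22.7 and 16.2 CPM in the vehicle libraries. The groups were far apart, and the fitted change was 5.29 on the log2 scale (SE 0.13; adjusted p = 8.83e-10), rank 32 of 7831. Il18 was at 46.4 and 44.4 CPM in the LPS libraries, against 7.60 and 6.35 CPM in the vehicle libraries. It rose by 2.70 on the log2 scale (SE 0.16; adjusted p = 5.24e-07), a smaller fold than either agonist, at rank 127 of 7831.

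Il1f9 had the lowest level of the members with reads in both stimulated groups. Its level was 7.98 and 5.47 CPM in the LPS libraries, against 5.03 and 1.14 CPM in the vehicle libraries. The groups did not overlap, but the vehicle libraries differed more from each other (45 and 11 counts) than the lower LPS library did from the higher vehicle one. The log2 fold change of 1.13 (SE 0.54; adjusted p = 0.134) did not pass the test, with a 95% interval from −0.08 to 2.33. Without vehicle replicate 1 it was 2.54 (adjusted p = 0.000145), and without vehicle replicate 2 it was 0.42 (adjusted p = 0.255). With all 6 libraries and no filter on low counts it was called, at 1.16 (adjusted p = 0.0106). Among symbols with 10 to 20 counts in vehicle replicate 2, 3.94% had at least 3 times as many in vehicle replicate 1, as Il1f9 did, and 57 of 814 symbols differed as much in the other direction.

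Of the 4 tested members 3 rose with LPS and 0 fell, where 19.4% of all tested genes rose and 17% fell. A gene is called here when its adjusted p (Benjamini-Hochberg) in the quasi-likelihood test of edgeR is under 0.05. All 4 had LPS libraries above both vehicle libraries, which was so for 33.1% of all tested genes. The median log2 fold change of all tested genes was −0.01.

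**Figure D1:**
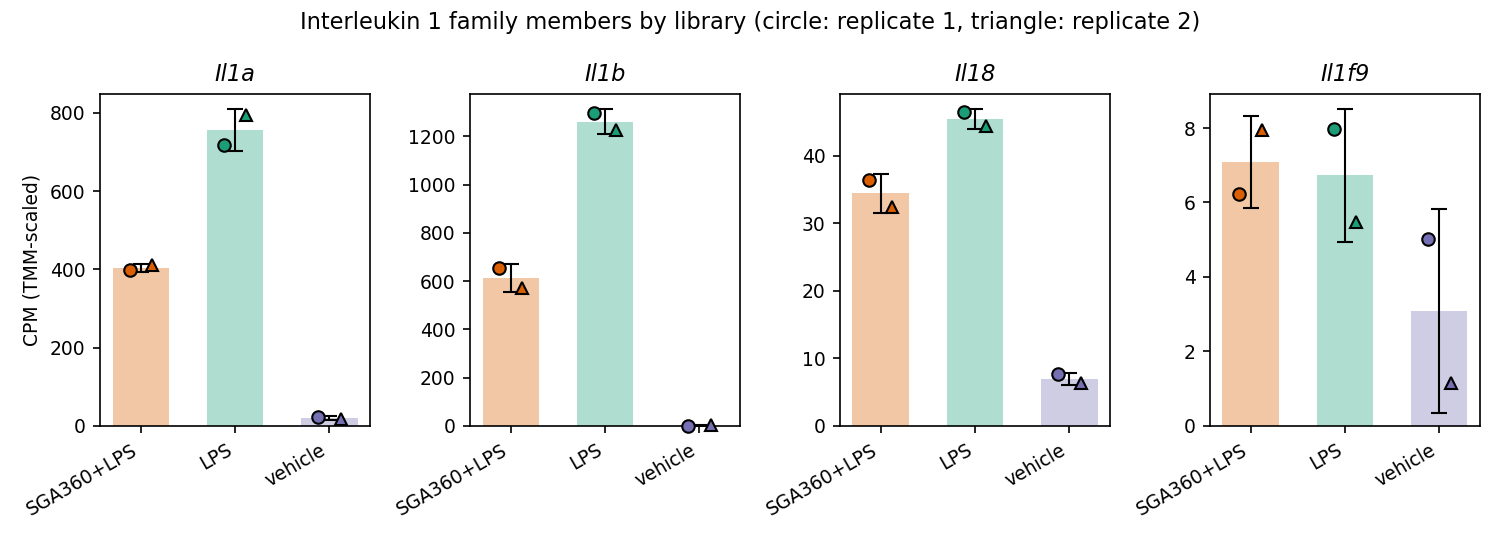
CPM of the 4 members with reads in each library (bars: group mean; error bars: SD, n = 2; circles: replicate 1; triangles: replicate 2), with a separate linear axis from 0 for each gene. Il1a, Il1b and Il18 are highest in the LPS libraries and lower in both SGA360+LPS libraries. For Il1f9 the SGA360+LPS and LPS points overlap, and the vehicle points lie lower, at 5.03 and 1.14 CPM.

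Il1rn, the receptor antagonist, was listed at 0 counts in all 6 libraries in each of its 3 transcript rows (NM_031167, NM_001039701 and NM_001159562). This is no evidence that the gene was silent. In GENCODE, the transcripts matched to the 3 rows have 28.2%, 7.60% and 3.02% of their exonic bases in none of the other matched transcripts. The models matched to NM_001039701 and NM_001159562 hold only 1986 and 728 bases, where the deposited rows are 2484 and 2414 bases long. These shares therefore do not measure how much of each deposited row is its own. Among all deposited symbols, no library had a count for 52.6% of the 2458 symbols with 3 or more rows, or for 37.1% of the 18815 single-row symbols. Itgam, the CD11b integrin of macrophages, has 2 rows and was at 0 throughout as well. The sources used here do not give how reads shared by several transcripts were counted, so no level, fold or ratio to the agonists is given for Il1rn.

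Divided by transcript length (CPM per kb), the order of the members differed between vehicle and the stimulated groups. With LPS, Il1b was at 931 ± 37.4 CPM per kb, Il1a at 382 ± 26.6, Il18 at 52.1 ± 1.65 and Il1f9 at 4.07 ± 1.08 (SD, n = 2), and no neighbours in that order overlapped. The order with SGA360+LPS was the same, at 453 ± 42.0, 204 ± 5.18, 39.5 ± 3.30 and 4.29 ± 0.741 CPM per kb, again with no overlap. In vehicle, Il1a (9.82 ± 2.30 CPM per kb) and Il18 (8.00 ± 1.01) led with overlapping libraries, followed by Il1f9 (1.87 ± 1.66) and Il1b (0.499 ± 0.706), which overlapped too. Per length, Il1b was at 2.64 and 2.26 times the level of Il1a in the LPS libraries, against 0 and 0.122 times in the vehicle libraries.

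The second comparison asks what SGA360 did under the endotoxin. Both agonist genes were lower with SGA360+LPS, at 48.6% of the mean LPS level for Il1b and 53.5% for Il1a. Il1b was at 653 and 573 CPM in the SGA360+LPS libraries, against 1297 and 1225 CPM in the LPS libraries. It fell by 1.04 on the log2 scale (SE 0.14; adjusted p = 0.0393), with a 95% interval from −1.36 to −0.72. Il1a was at 397 and 412 CPM in the SGA360+LPS libraries, against 719 and 794 CPM in the LPS libraries. It fell by 0.90 (SE 0.10; adjusted p = 0.00961), with a 95% interval from −1.12 to −0.68. For both genes the 2 groups were separated by more than the spread within either, and they ranked 3 (Il1b) and 10 (Il1a) from the lowest fold among the 7831 genes.

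Il18 was at 36.4 and 32.4 CPM in the SGA360+LPS libraries, against 46.4 and 44.4 CPM in the LPS libraries. Both SGA360+LPS libraries were lower, at 75.8% of the mean LPS level, but the log2 fold change of −0.40 (SE 0.14) did not pass the test (adjusted p = 1.000, unadjusted p = 0.0151; 95% interval −0.71 to −0.10). Il1f9 was at 6.22 and 7.95 CPM in the SGA360+LPS libraries, against 7.98 and 5.47 CPM in the LPS libraries. These groups overlapped, and the interval of its log2 fold change of 0.09 (SE 0.51), from −1.04 to 1.22, spans a halving and a doubling. Of the 4 tested members 2 were lower and 0 higher, where 0.0746% of all tested genes, 7 in number, were lower. None was higher in this fit. Without a filter on low counts edgeR called 2 genes higher, on the 2 groups alone 1 and without vehicle replicate 1 or 2 it called 2 and 3, while DESeq2 called 1 and limma-voom 0. Of the 9389 tested genes, 276 had an unadjusted p under 0.05. That is fewer than such a threshold passes on average when no gene differs. The 3 members with separated groups were all lower, where 19.6% of all tested genes had both SGA360+LPS libraries below both LPS libraries and 19.9% had them above.

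These 2 calls were mostly lost when 1 of the 4 stimulated libraries was left out. For Il1b, adjusted p was 0.489 without SGA360+LPS replicate 1, 1.000 without SGA360+LPS replicate 2, 0.415 without LPS replicate 1 and 0.290 without LPS replicate 2, with log2 fold changes between −1.14 and −0.95. For Il1a the same 4 fits, in that order, gave adjusted p = 0.328, 0.264, 0.0466 and 0.158, with log2 fold changes between −0.98 and −0.83. DESeq2 did not call Il1b either (log2 fold change −1.04, SE 1.38, adjusted p = 1.000), but it called Il1a (SE 0.09). That fit took in all 6 libraries, with 0 and 13 counts of Il1b in vehicle. EdgeR on the 2 groups alone, which leaves out the vehicle spread, called both genes (adjusted p = 4.17e-06 for Il1b and 4.19e-06 for Il1a). Limma-voom on all 6 libraries also called both (adjusted p = 0.00124 for each). With vehicle replicate 1 left out, alone or together with any 1 of the 4 stimulated libraries, both genes were called in each of the 5 fits. Both were also called with vehicle replicate 2 left out instead (log2 fold change −1.04 for Il1b and −0.90 for Il1a). The fits that left out a stimulated library as well were chosen after the data were seen. With 1 vehicle library left, a fit no longer carries the spread of the vehicle pair, so these calls do not restore the lost ones.

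**Figure D2:**
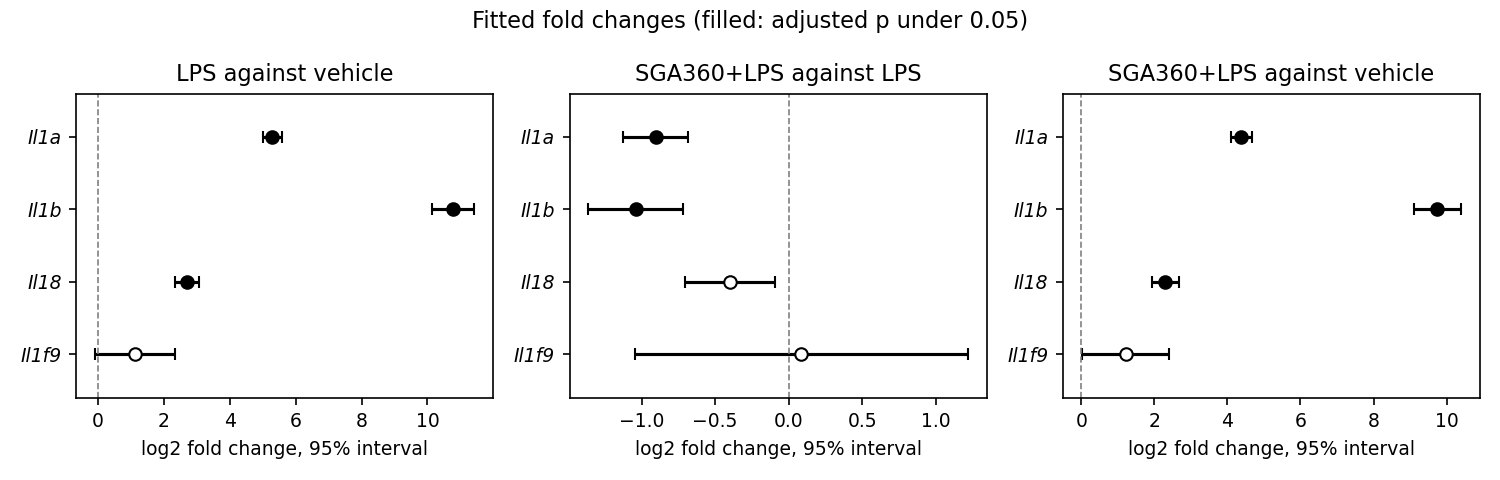
Fitted log2 fold changes with 95% intervals for the 4 tested members in the 3 comparisons (filled: adjusted p under 0.05; each panel has its own scale). Il1a, Il1b and Il18 lie right of 0 against vehicle, and Il1a and Il1b are the filled points left of 0 in SGA360+LPS against LPS.

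Whether the members changed by different amounts was looked at through ratios of counts within a library, chosen after the values were seen. The Il18 to Il1b log2 count ratio was −4.16 and −4.15 in the SGA360+LPS libraries, against −4.80 and −4.79 in the LPS libraries. Its mean was thus 0.64 higher with SGA360. The replicates lay very close, but Il18 had only 287 and 289 counts with SGA360+LPS and 349 and 406 with LPS. Counting error at that depth is larger than the spread seen, so the closeness of 2 libraries is no guide to precision. The Il18 to Il1a ratio was −3.45 and −3.67 with SGA360+LPS, against −3.95 and −4.16 with LPS, a difference of 0.50. The Il1b to Il1a ratio was 0.72 and 0.48 with SGA360+LPS, against 0.85 and 0.63 with LPS, and here the groups overlapped. Both ratios with Il18 thus differed by more than the spread between replicates, which 2 libraries a group estimate poorly. An exact permutation test of 2 libraries against 2 cannot give a p under 0.333, so no test decides these differences. The Il18 to Il1a log2 count ratio was also −3.95 and −4.16 with LPS, against −1.58 and −1.35 in vehicle, a difference of −2.59 with no overlap.

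**Figure D3:**
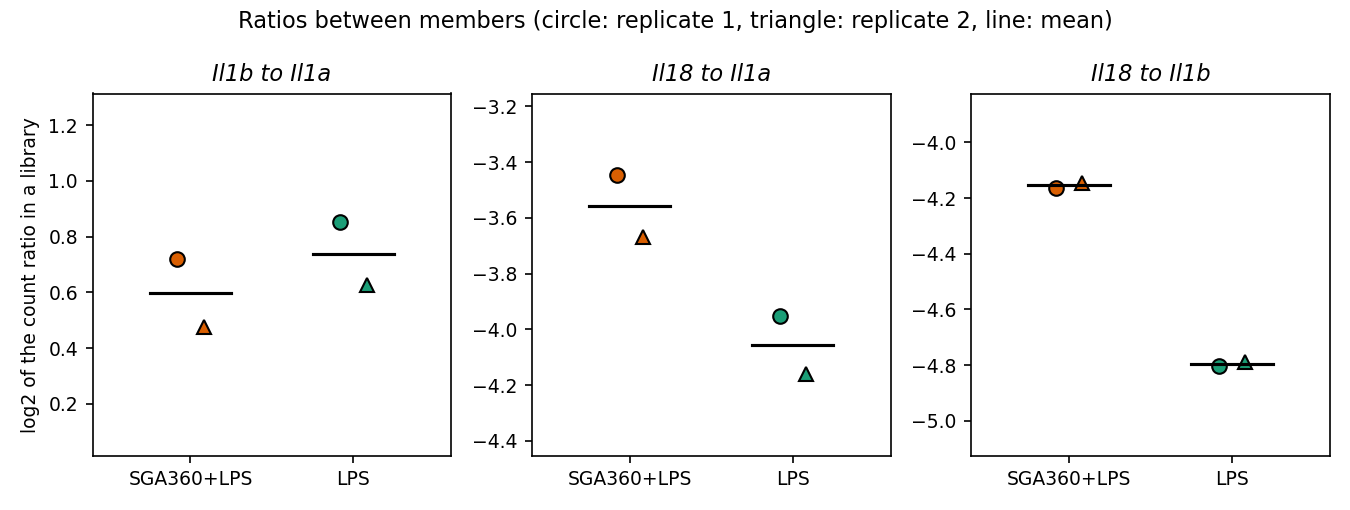
Log2 of the count ratio between pairs of members in each SGA360+LPS and LPS library (circles: replicate 1; triangles: replicate 2; lines: group means), with equal axis spans and different offsets. The Il18 to Il1b points lie near −4.15 with SGA360+LPS and near −4.80 with LPS, while the Il1b to Il1a points of the groups overlap.

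Against vehicle, the SGA360+LPS libraries still held far more of the 3 called members. The log2 fold change was 9.75 (SE 0.29; adjusted p = 3.53e-09) for Il1b, 4.38 (SE 0.13; adjusted p = 3.06e-09) for Il1a and 2.30 (SE 0.16; adjusted p = 2.06e-06) for Il18. Il1f9 stood at 1.21 (SE 0.54; adjusted p = 0.114), at 2.64 (adjusted p = 9.95e-05) without vehicle replicate 1 and at 0.52 (adjusted p = 0.152) without vehicle replicate 2. It was called with no filter on low counts (1.24) and by limma-voom (1.57). Of the 4 tested members 3 were higher, where 17.9% of all tested genes were. This comparison shares its vehicle libraries with LPS against vehicle and its SGA360+LPS libraries with SGA360+LPS against LPS, so it adds no independent measurement.

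By the root mean square difference of centred log2(CPM + 1) over the 6 libraries, the 3 genes most like each member were picked among 7831 genes. For Il1a they were Ptgs2 (0.109), which encodes the prostaglandin synthase COX-2, the chemokine gene Ccl3 (0.207) and Rasgrp1 (0.260), an activator of Ras. Ptgs2 was at 132 ± 5.69 CPM with SGA360+LPS, 259 ± 8.03 with LPS and 5.94 ± 0.452 in vehicle (SD, n = 2). For Il1b they were Cxcl3 (0.434), Irg1 (0.586), the itaconate-forming enzyme, and Cxcl2 (0.648), larger differences than for the other members. The vehicle libraries held 0 and 1.35 CPM of Il1b, against 1.23 and 1.46 CPM of Cxcl3. What these low counts add to the differences was not tested. For Il18 they were Bdkrb1 (0.0838), a bradykinin receptor gene, the chemokine gene Ccl9 (0.117) and Slco3a1 (0.132), and Bdkrb1 was at 13.6 ± 1.12, 17.3 ± 0.330 and 2.43 ± 0.0460 CPM in the same group order. For Il1f9 they were Lrrc32 (0.243), Camk2d (0.247) and Cp (0.251), and the ceruloplasmin gene Cp likewise had a wide vehicle pair (2.71 ± 2.65 CPM).

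With LPS, 4 of the 6 tested genes within 200 kb of Il1a rose, where 19.4% of all tested genes rose. The 4 were Il1b, Slc20a1, Polr1b and Gm14023, whose exons overlap Il1a, so its reads may in part be those of Il1a. Ckap2l, 2.40 kb from Il1a, is a mitotic spindle gene whose fitted log2 change with LPS was −0.00 (SE 0.13; adjusted p = 0.991), while Slc20a1, a phosphate transporter gene 88.0 kb away with 2 transcript rows, rose by 0.89 (SE 0.09; adjusted p = 3.98e-05). The annotated transcript Gm14023 overlaps Il1a on the opposite strand over 222 of its exonic bases and had 21 and 11 counts with LPS, against 0 and 2 in vehicle. Il1bos overlaps Il1b on the opposite strand over 25 exonic bases and had 12 and 8 counts with LPS, against 0 and 1 in vehicle. The sources used here give no strand setting, so reads in those shared bases cannot be told apart. Near Il18, 1 of 10 tested genes within 200 kb rose with LPS and 0 fell, beside 19.4% and 17% of all tested genes. That gene, Plet1, lies 59.7 kb away and had 50 and 44 counts with SGA360+LPS, 51 and 54 with LPS, and 0 and 4 in vehicle. Near Il1f9, the family members Il1f5, Il1f8 and Il1f10 were at 0 in every library. Il1f5 has 3 transcript rows, as Il1rn does, which limits what its 0 shows. Il1f6, the interleukin 36 alpha gene, had 5 and 3 counts with SGA360+LPS, 3 and 4 with LPS and 0 and 0 in vehicle, too few to test. Il33 was also listed at 0, but has 2 transcript rows.

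Of 8 tested receptors and binding proteins of the family, 2 rose with LPS and 0 fell, beside 19.4% and 17% of all tested genes. Il18bp, the decoy that neutralises interleukin 18, was at 15.1 ± 0.397 CPM with LPS and 7.67 ± 0.691 CPM in vehicle (SD, n = 2; log2 fold change 0.98, SE 0.19; adjusted p = 0.00275). Il1rap, with 4 transcript rows and therefore uncertain, rose by 0.70 (SE 0.19; adjusted p = 0.0178). Il1rl2, the interleukin 36 receptor gene, stood at 25.5 ± 1.99 CPM with LPS and 24.3 ± 1.67 CPM in vehicle, and Il1rl1, the interleukin 33 receptor gene, at 5.29 ± 0.711 and 5.09 ± 1.17 CPM. The signalling receptor gene Il1r1, counted over 2 rows, had 19 and 19 counts with LPS, against 0 and 21 in vehicle.

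Of 12 tested signalling genes 7 rose and 1 fell, beside the same 19.4% and 17% of all tested genes. The largest rises were Irak3, which encodes an inhibitory kinase homologue of the pathway (log2 fold change 2.69, SE 0.10; adjusted p = 1.87e-08), Zc3h12a, which encodes the RNase Regnase-1 (2.45, SE 0.12; adjusted p = 1.08e-07), and the ubiquitin ligase gene Peli1 (1.95, SE 0.10; adjusted p = 1.33e-07). Its relative Peli2 fell by 1.86 (SE 0.24; adjusted p = 0.000205). Map3k3 was at 104 ± 2.23 CPM with LPS and 94.8 ± 15.9 CPM in vehicle, and Irak4, the proximal kinase, at 53.1 ± 5.65 and 66.7 ± 5.71 CPM, without a call.

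Among 15 tested inflammasome and processing genes 8 rose and 4 fell, where 19.4% and 17% of all tested genes did. The sensor gene Nlrp3 was at 675 ± 44.7 CPM with LPS and 34.6 ± 2.91 CPM in vehicle (log2 fold change 4.29, SE 0.10; adjusted p = 6.39e-10). Casp4, encoding the caspase that senses intracellular LPS, rose by 2.60 (SE 0.11; adjusted p = 4.90e-08), and Mefv, the pyrin gene, had 15 and 10 counts with LPS and none in vehicle, which is at least 4.78-fold higher when each vehicle library is set to a floor of 3 counts. Casp1, which encodes the processing caspase, rose by 1.21 (SE 0.09; adjusted p = 2.99e-06) and Gsdmd by 1.17 (SE 0.09; adjusted p = 2.76e-06). The adaptor gene Pycard fell instead, to 71.2 ± 0.928 CPM with LPS against 155 ± 20.9 CPM in vehicle (−1.13, SE 0.11; adjusted p = 1.95e-05). Nlrp1b, a sensor gene with 2 rows, fell by 4.90 (SE 0.81; adjusted p = 0.000917) with 1 count in each LPS library, so its fold is uncertain. Without a call were Nlrp1a, at 3.08 ± 0.593 CPM with LPS and 4.94 ± 0.513 CPM in vehicle, and Casp8, which starts apoptosis and has 3 rows, at 3.19 ± 0.950 and 1.41 ± 1.83 CPM. The median log2 fold change with LPS was 0.38 for the receptors, 0.53 for the signalling genes and 0.52 for the inflammasome genes, against −0.01 for all tested genes.

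Between SGA360+LPS and LPS none of these 35 tested pathway genes was called by edgeR, DESeq2 or limma-voom. In edgeR, 3 of them (Nlrp3, Zc3h12a and Aim2) had an unadjusted p under 0.05. Of all 9389 tested genes edgeR called 0.0746%, and 276 had an unadjusted p under 0.05. With so few calls in all, a list of this size would mostly hold none. The medians were −0.24 for 8 receptor genes, −0.07 for 12 signalling genes and −0.04 for 15 inflammasome genes, against 0.00 for all tested genes. Nlrp3 stood at 561 ± 35.5 CPM with SGA360+LPS and 675 ± 44.7 CPM with LPS (−0.27, SE 0.08), and Capn2, a calpain gene, at 282 ± 5.36 and 274 ± 4.33 CPM. Irak3 was at 333 ± 8.10 and 377 ± 6.23 CPM, Tollip, an adaptor gene, at 227 ± 12.4 and 233 ± 7.16 CPM, Il1rl2 at 23.0 ± 4.70 and 25.5 ± 1.99 CPM, and Il1rap at 15.6 ± 1.23 and 17.6 ± 0.903 CPM. Casp1 was at 176 ± 5.62 CPM with SGA360+LPS and 186 ± 8.88 CPM with LPS, a log2 fold change of −0.08 (SE 0.09).

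Against vehicle, 1 of 8 receptor genes rose with SGA360+LPS and 0 fell, 6 of 12 signalling genes rose and 2 fell, and 7 of 15 inflammasome genes rose and 4 fell. Of all tested genes 17.9% rose and 15.2% fell in this comparison. The log2 fold change was 0.88 (SE 0.19; adjusted p = 0.00572) for Il18bp, 4.02 (SE 0.09; adjusted p = 9.76e-10) for Nlrp3 and 2.53 (SE 0.11; adjusted p = 6.56e-08) for Casp4. Irak3 stood at 2.52, Zc3h12a at 2.21, Peli1 at 1.94 and Peli2 at −1.83, all called, while Nlrp1b was at −2.87 (adjusted p = 0.00633) and Mefv at least 4.61-fold higher than the same floor. Irak4 fell by 0.37 (SE 0.12; adjusted p = 0.0465). Without a call were Il1rl2 (−0.08), Il1rap (0.53), Map3k3 (0.13), Tab1 (−0.06), Aim2 (0.22) and Nlrp1a (−0.66). The vehicle libraries are those of the LPS comparison, so these values are set beside it and are not a second measurement.

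**Figure D4:**
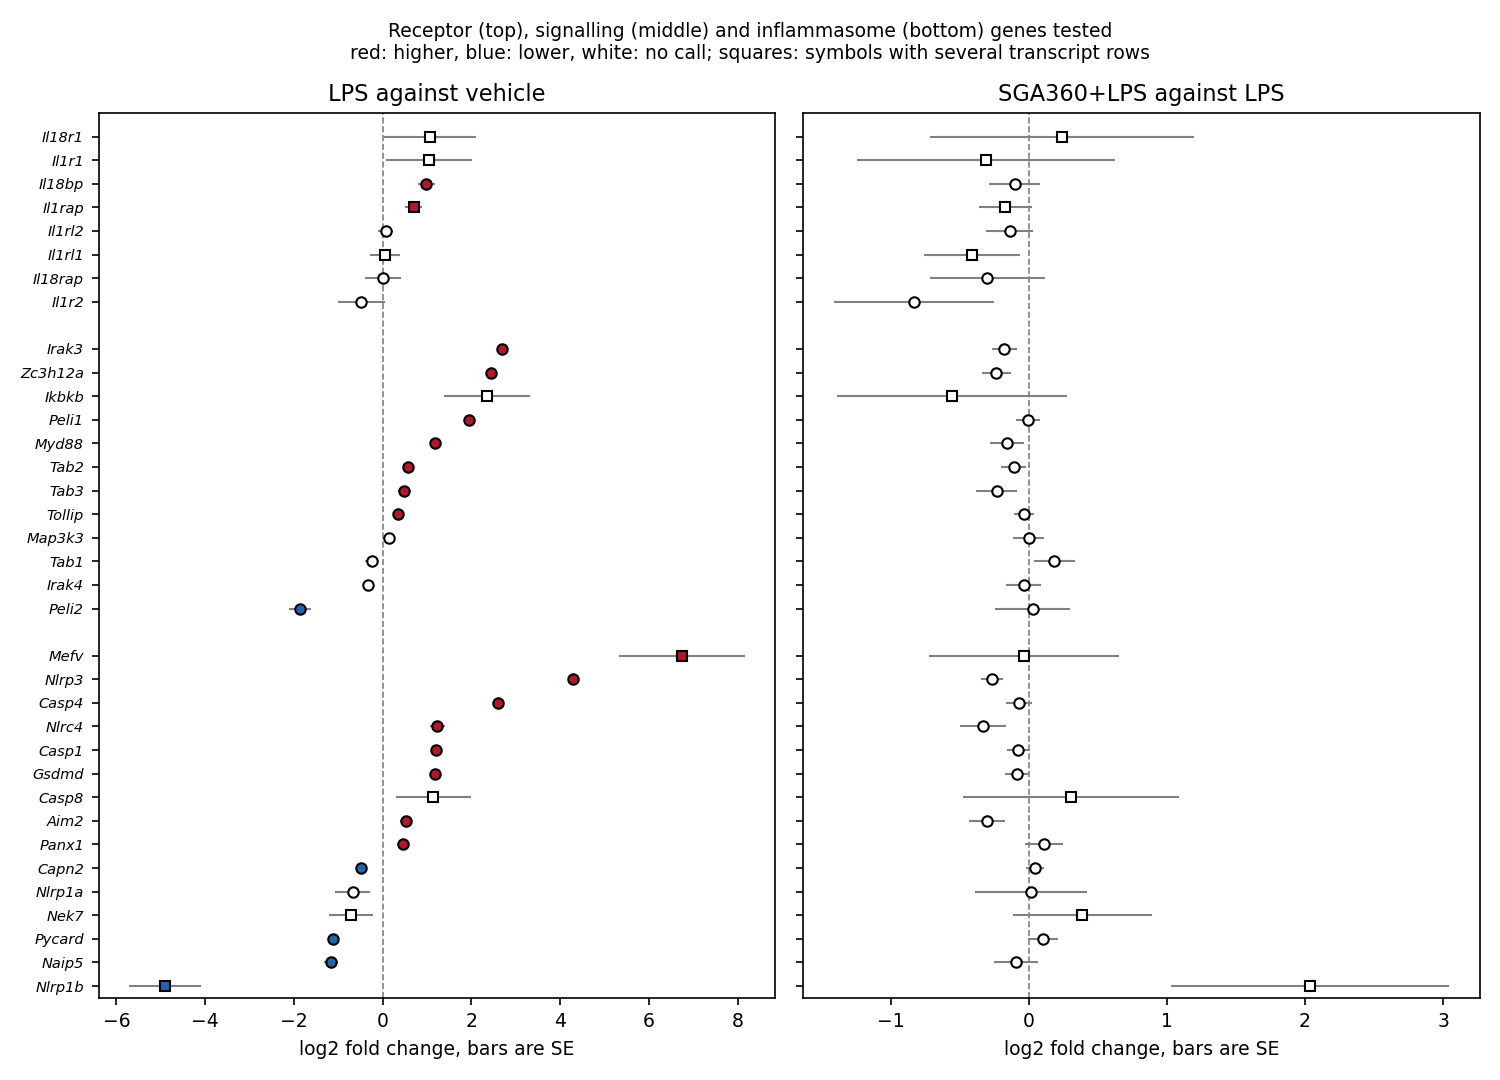
Log2 fold change with SE for the 35 tested receptor, signalling and inflammasome genes (red: higher; blue: lower; white: no call; squares: symbols with several transcript rows), on a separate scale for each panel. With LPS, Nlrp3, Irak3 and Casp4 lie far right and Pycard and Peli2 left, while all points of SGA360+LPS against LPS are white. Mefv has no vehicle count, so its fitted position against vehicle is no measure of size.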

How the data were processed

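The 6 RNA sequencing libraries of cultured macrophages were compared, grouped by the labels. The authors deposited whole-number read counts per RefSeq transcript (34751 rows), with transcript lengths; TopHat2 2.0.13, HTSeq 0.5.4p3 and mm10 are named in the submitters' processing notes. Every library column matched a label. Counts were summed per symbol, filtered with filterByExpr (minimum count 10), TMM-normalised and put through glmQLFit and glmQLFTest of edgeR 4.0.16 (R 4.3.3) in 1 model of 3 groups, with 3 residual degrees of freedom. The threshold was 0.05 on Benjamini-Hochberg adjusted p over every tested gene. SE was taken from the fold change and the F statistic. Table positions start 1 base early, and 1-based positions are given.

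The members and the lists were chosen with earlier results of these data known. From each of 4 lists (other ligands, receptors, signalling, inflammasome), up to 4 called genes with the largest folds and up to 2 uncalled genes with the highest mean were named; Casp1, Gsdmd, Pycard and Il1r1 were added after their values were seen. A planned ratio of Il1b to Il1rn could not be had, since Il1rn has no count.

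Replicates were compared by chi-square: the mean per gene was 4.23 for SGA360+LPS, 6.33 for LPS and 44.4 for vehicle, so each library counted as its own sample. Alternatives were DESeq2 1.42.0, limma-voom (limma 3.58.1), RLE size factors, no filter, a filter of 5 CPM, the 2 groups alone, the row with most counts, a replicate block and each library left out. Floors cover counting error only.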

Additional observations from a re-analysis of the deposited data

How the results depend on the processing

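Il1a, Il1b and Il18 kept their direction and their call against vehicle, with LPS and with SGA360+LPS, under all 18 alternatives to the fit reported. In SGA360+LPS against LPS, Il18 had no call under any alternative that gave an adjusted p.

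Counts of changed genes moved by more than 1.5 times in some fits. With LPS against vehicle they ran from 2091 to 5494 with libraries left out (3413 with all), and with SGA360+LPS against vehicle from 1831 to 5315 (3107 with all). In SGA360+LPS against LPS, 7 genes were called with all libraries, 17 without a filter, 11 by DESeq2, 12 on the 2 groups alone, and 0 to 111 with libraries left out. The highest of these, and 21, 55 and 63, came from fits chosen after the data were seen that also left out vehicle replicate 1. Alone, leaving out vehicle replicate 1 or 2 gave 15 and 16 genes. With the vehicle pair reduced to 1 library, that library is assumed to vary like the other groups, and the fits no longer carry the spread of the pair.

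In SGA360+LPS against LPS, Il1b fell by 1.04 on the log2 scale by DESeq2, not called (SE 1.38, adjusted p = 1.000). The replicate numbers gave correlations of deviations of 0.163, 0.0145 and −0.01 between the groups. No label says that libraries of the same number were paired, and with 2 libraries a group these values cannot decide it. With the number as a replicate block in edgeR, Il1b fell by 1.04 (adjusted p = 0.0517) and lost its call. With libraries left out, Il1b ran from −1.14 to −0.95 and Il1a from −0.98 to −0.83. Il1f9 changed direction there: with libraries left out it ran from −0.17 to 0.38, and it was −0.11 without SGA360+LPS replicate 2, −0.17 without LPS replicate 2, and −0.10 and −0.17 when vehicle replicate 1 was left out as well. Against vehicle Il1f9 was called without a filter, at 1.16 with LPS and 1.24 with SGA360+LPS, and by limma-voom with SGA360+LPS (1.57); with libraries left out it ran from 0.42 to 2.80 with LPS and from 0.52 to 2.80 with SGA360+LPS. The cause was not tested. The Il18 to Il1b and Il18 to Il1a differences kept their sign with any 1 of the 4 stimulated libraries left out. The Il1b to Il1a difference, whose groups overlap, moved from −0.14 to between −0.26 and −0.02. The Il1b to Il1rn ratio was not computed under any setting, since Il1rn has no count. Depth was low for Il1f9, with 11 to 71 counts per library, and for Il1b in vehicle, with 0 and 13.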
